A study of Mus musculus with 7 samples.

Results

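The genes of cholesterol and fatty acid synthesis were examined in the islets of pregnant mice, as 37 genes of the 34082 in the table of gene values. They were chosen by pathway, as a list of names, and were matched to the table without regard to case, and all 37 were found. They fall into a sterol branch of 24 genes, made up of 18 enzymes and 6 regulators or carriers, and a fatty acid branch of 13 genes. All 37 had a mean of at least 0.5 TPM (a level relative to the whole library that takes transcript length into account), as did 14840 genes in all, and these were tested. RNA was sequenced from the islets of 7 C57BL/6 mice on day 15 of pregnancy, each mouse giving 1 library. In 4 βPrlR+/- mice 1 floxed allele of the prolactin receptor gene Prlr is deleted by Pdx1CreER, a Cre recombinase that tamoxifen activates in cells using the Pdx1 promoter, in adults chiefly β-cells. In 3 Prlr+/- mice 1 Prlr allele is null in every tissue, and these mice carried no Cre and had no tamoxifen. Genotype, Cre and tamoxifen thus differ together and cannot be told apart. The labels title the βPrlR+/- libraries CkoWt and call the β-cell deletion homozygous, whereas the study describes it as heterozygous. They give an age of 3 to 4 months, lower than that in the study. Islets of 100 to 200 per mouse were picked by hand and, by the study's methods, cultured overnight in medium with serum before use. Islets from wild type mice were not analysed here, so each comparison is between the mutants and gives no effect of Prlr loss itself.

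Cholesterol is built from acetyl-CoA through mevalonate, isoprenoid units, squalene and lanosterol, and fatty acids from acetyl-CoA through malonyl-CoA. SREBP2 and SREBP1, encoded by SREBF2 and SREBF1, are membrane-bound transcription factors that SCAP carries from the endoplasmic reticulum to the Golgi apparatus for cleavage when sterols are scarce, while the INSIG proteins hold SCAP back when sterols are plentiful. In β-cells sterols shape the membranes of insulin granules, and malonyl-CoA, the product of acetyl-CoA carboxylase, is a known signal of nutrient supply.

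No gene of either branch was called different between Prlr+/- and βPrlR+/- islets. With limma and Benjamini-Hochberg adjustment over all 14840 genes, 0 of the 37 genes passed an adjusted p of 0.05, against 10 of all genes tested (0.0674%), 9 of them lower and 1 higher in the Prlr+/- group. Without adjustment, 0 of 37 again had a p under 0.05, against 671 of all genes (4.52%). The values of the groups overlapped for every one of the 37, whereas those of 735 genes (4.95%) did not. The smallest unadjusted p was 0.0859, for ACLY, and every adjusted p rounded to 1.0. Fold changes are given as the difference of log2(scaled TPM + 1), Prlr+/- minus βPrlR+/-, and scaled TPM is the TPM of a mouse divided by a size factor that evens out the libraries. They ran from −0.36 for SCD to 0.20 for ACLY, with a median of 0.040 over the 37 genes and 0.0042 over all genes tested.

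The size of difference that these 7 mice leave possible can be read from the intervals. The 95% interval of the difference lay within 0.5 log2 units of 0 for 32 of the 37 genes, which is close to the share among all genes tested (81.4%). All 24 genes of the sterol branch were among the 32. The 5 exceptions, SCD, ACACB, FADS2, DGAT2 and ELOVL5, belong to the fatty acid branch. These counts rest on the pseudocount of 1, the value added before the log. With a pseudocount of 0.1 the SE rose from 0.17 to 0.28 for IDI1 and from 0.13 to 0.22 for HSD17B7. Both intervals are then wider. That of IDI1, whose difference is then 0.16, reaches past 0.5 log2 units, and that of HSD17B7 need not lie within 0.5 log2 units of 0. The half-width of the interval was 0.14 for FADS1 at the narrowest, 0.66 for DGAT2 at the widest, and 0.27 in the median. With 4 mice against 3 the exact permutation test over 35 splits cannot give a p below 0.0286.

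**Figure D1:**
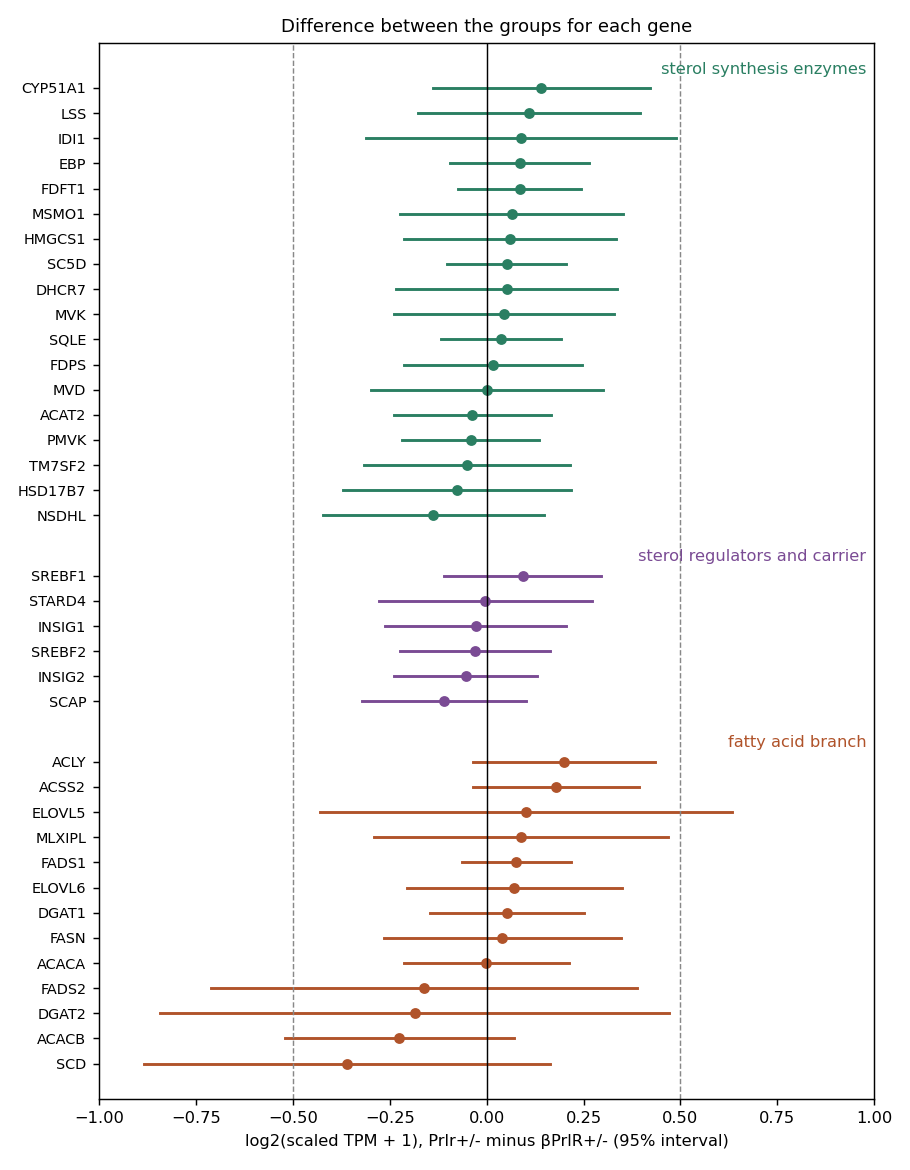
Difference of log2(scaled TPM + 1), Prlr+/- minus βPrlR+/-, for each of the 37 genes (points), with its 95% interval from limma (bars), over 4 βPrlR+/- and 3 Prlr+/- mice. Every interval includes 0, and 32 lie wholly between the dashed lines at 0.5 log2 units on either side.

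The libraries differ in ways that bear on these values. The insulin genes took 52.7%, 53.2%, 46.1% and 53.1% of the TPM in βPrlR+/- mice 1 to 4. In Prlr+/- mice 1 to 3 they took 56.6%, 54.0% and 58.9%, so this share was higher in every Prlr+/- mouse. A larger insulin share lowers the TPM of all other genes, and the deposited values were scaled for this reason. Why the share differed between the groups was not tested. PRLR, the deleted gene, was at 55.7, 38.4, 47.3 and 38.8 scaled TPM in βPrlR+/- mice 1 to 4 and at 36.1, 51.1 and 35.1 in Prlr+/- mice 1 to 3. The groups overlapped (limma adjusted p = 1.0). If both genotypes lack 1 allele, as the study describes, PRLR does not check which group a library belongs to. Summed over 16 acinar markers, genes of the digestive enzyme cells around the islets, scaled TPM ran from 5740 to 48700 in βPrlR+/- mice and from 15800 to 39600 in Prlr+/- mice, and it was lowest in βPrlR+/- mouse 2. The 9 β-cell markers summed to 451000 to 599000 and to 582000 to 715000, and all 9 had a higher mean in Prlr+/- mice, although 1 of them turned lower on TPM as deposited and 0 passed the adjusted threshold. The other endocrine lists went the opposite way, with 5 of 5 α-cell markers (median −0.22) and 4 of 4 δ- and PP-cell markers (median −0.23) lower in Prlr+/- mice under all 4 scalings, again with 0 past the threshold. In each of the β- and α-cell lists 1 marker, MAFA and TTR, had an unadjusted p under 0.05. Of the tested macrophage markers 4 were higher and 2 lower, but 1 and 5 on TPM as deposited and 3 and 3 with upper-quartile scaling, and of the fibroblast markers 1 was higher and 3 lower under all 4 scalings tried. The 8 endothelial markers summed to 180 to 213 and to 150 to 185, all 8 were lower in Prlr+/- mice, 4 had an unadjusted p under 0.05 (4.52% of all genes tested), 3 did not overlap between the groups (4.95%), and 0 passed the adjusted threshold. Of 9 markers of adipocytes, cells that make much fatty acid, 6 stood under 0.05 scaled TPM in every mouse, ADIPOQ, LEP and PLIN1 among them, and nearly all of the sum over the list, 64.7 to 121 in βPrlR+/- and 28.8 to 77.5 in Prlr+/- mice, was FABP4 (63.9 to 120.1 and 28.3 to 76.8), a gene that endothelial cells and macrophages also express. The part of these cell types in the results was not tested, apart from the acinar level as a covariate. In such bulk samples fewer cells of a type and less RNA per cell cannot be told apart.

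The sterol enzymes were moderately expressed, with a median of 9.0 scaled TPM over the 18 genes beside 7.46 over all genes tested. SQLE, squalene epoxidase, stood highest at a mean of 56.0, followed by MSMO1, which removes methyl groups from the sterol ring (34.0), and FDPS, which makes farnesyl diphosphate (26.6). The lowest were HSD17B7, a sterol ketoreductase (1.10), IDI1, the isopentenyl diphosphate isomerase (1.35), and MVD, mevalonate diphosphate decarboxylase (2.66). Enzymes of 1 pathway thus differed widely in RNA level. Within each library SQLE was 30.1 to 61.2 times IDI1, a ratio that no scaling alters. These genes are not successive steps, and the pair was picked after the values had been seen.

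**Figure D2:**
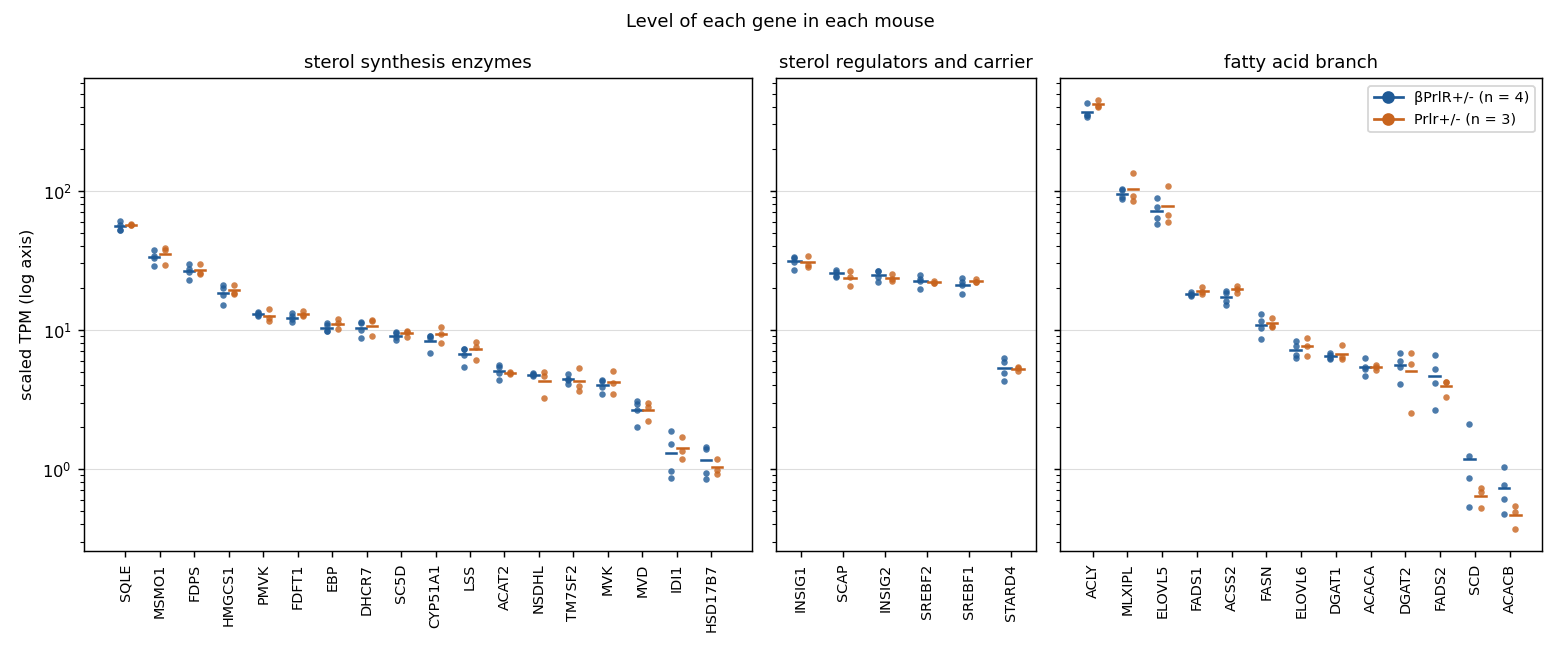
Scaled TPM (log axis) of each gene in each of 4 βPrlR+/- mice (blue points) and 3 Prlr+/- mice (orange points), with group means as short lines, ordered by mean level within each branch. Levels span from ACLY at a mean of 389 to ACACB at 0.61, and for each gene the points of the groups overlap.

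HMGCS1 makes HMG-CoA from acetoacetyl-CoA and is a long-known target of SREBP2. In βPrlR+/- mice, numbered 1 to 4 and given in this order throughout, it stood at 17.7, 15.2, 21.1 and 20.02 scaled TPM, and in Prlr+/- mice, numbered 1 to 3, at 18.5, 21.1 and 18.0. The Prlr+/- values fell inside the range of the βPrlR+/- mice but for mouse 2, which was the highest of all by a small margin. The difference was 0.060 (0.12 SE, 95% interval −0.21 to 0.33, exact permutation p = 0.686).

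FDFT1, squalene synthase, commits farnesyl diphosphate to sterols. It was at 11.9, 11.3, 12.5 and 13.2 scaled TPM in βPrlR+/- mice and at 12.8, 12.6 and 13.6 in Prlr+/- mice. The highest value was in Prlr+/- mouse 3 and the lowest in βPrlR+/- mouse 2, and those in between interleaved. The difference of 0.085 (0.067 SE, 95% interval −0.073 to 0.24) had an exact two-sided permutation p of 0.2 and a limma p of 0.246, the smallest of the sterol branch.

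SQLE, which oxidizes squalene, held 52.5, 52.2, 56.6 and 60.4 scaled TPM in βPrlR+/- mice and 56.6, 56.4 and 57.3 in Prlr+/- mice. The 3 Prlr+/- values lay within 1 unit of each other and inside the wider βPrlR+/- range. Its interval for the difference was one of the narrower, from −0.12 to 0.19.

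LSS, lanosterol synthase, closes the sterol rings. Its values were 6.57, 5.44, 7.25 and 7.33 scaled TPM in βPrlR+/- mice and 6.11, 8.15 and 7.49 in Prlr+/- mice, with the lowest again in βPrlR+/- mouse 2 and the highest in Prlr+/- mouse 2. The difference was 0.11 (0.12 SE, 95% interval −0.18 to 0.40), less than the spread within either group, and it was 0.029 without βPrlR+/- mouse 2 and 0.21 without Prlr+/- mouse 1.

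DHCR7 carries out the reduction that ends the Kandutsch-Russell route to cholesterol. It stood at 11.3, 11.2, 8.66 and 9.96 scaled TPM in βPrlR+/- mice and at 8.95, 11.5 and 11.7 in Prlr+/- mice. Here the lowest was βPrlR+/- mouse 3, and Prlr+/- mouse 1 lay near it, so each group held a low mouse and higher ones. The interval ran from −0.23 to 0.34.

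For the other 13 enzymes the groups also overlapped. CYP51A1, the lanosterol demethylase, had the highest fold change of the sterol branch at 0.14 (0.12 SE, exact permutation p = 0.371), a ratio of group means of 1.11. Without βPrlR+/- mouse 2 it was 0.056, below EBP, the sterol isomerase, at 0.10 in the same setting, and over all 7 ways of leaving out a mouse it ran from 0.056 to 0.23. NSDHL, which works with MSMO1 on the ring methyl groups, had the lowest at −0.14 (0.12 SE, exact permutation p = 0.457). NSDHL stood between 4.63 and 4.88 scaled TPM in the 4 βPrlR+/- mice, and its lower mean in Prlr+/- mice came from mouse 2 at 3.22. Without that mouse the difference was 0.019. Of the 18 enzymes 13 had a higher and 5 a lower mean log2 value in Prlr+/- mice, with a median difference of 0.048, but on TPM as deposited, a setting that shifts the median over every tested gene to −0.12, 2 were higher and 16 lower.

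The promoters of the sterol enzymes share letters that the choice of genes did not use. The windows searched run from 250 bases before to 50 bases after the annotated RefSeq start on mouse GRCm38.p6, and 29 of the 37 genes matched at least 1 window. CCAAT, the box bound by NF-Y, which is known to act beside SREBP, was present on either strand for 14 of 15 sterol enzymes with a window (93.3%), for 4 of 5 regulators and for 6 of 9 genes of the fatty acid branch. That makes 24 of 29 genes (82.8%), against 41.1% of 27018 genes in the table of promoters and 42.3% of the tested genes matched to it. Some genes have several windows. Counted by window, the box was in 25 of 38 windows (65.8%), and in 5 of 10 for the regulators, against 37.4% of all windows. The letters TCACNCCAC, a core form of the sterol regulatory element, were found on either strand for 2 of 29 genes, HMGCS1 and MLXIPL, against 1.44% of all genes in the table. Other forms of the element were not searched, and a match is a description of these windows only. The 3 stretches below, each of 60 bases and written 5′ to 3′ on the strand of the gene, show the arrangement at the start of the mevalonate route, at the isoprenoid isomerase and at the lanosterol demethylase. Capitals mark the letters of either motif, with ATTGG being CCAAT read on the other strand.
HMGCS1, chr13:119690167-119690226, plus strand, 184 to 125 bases before the start: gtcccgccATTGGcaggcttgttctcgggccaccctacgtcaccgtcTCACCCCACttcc
IDI1, chr13:8885546-8885605, plus strand, 60 to 1 bases before the start: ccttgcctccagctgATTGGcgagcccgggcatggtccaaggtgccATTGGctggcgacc
CYP51A1 (mouse Cyp51), chr5:4104698-4104757, minus strand, 60 to 1 bases before the start: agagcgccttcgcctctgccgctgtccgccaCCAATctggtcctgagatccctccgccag
In the stretch of HMGCS1 an inverted CCAAT box lies upstream of the sterol element letters. IDI1 has a pair of inverted boxes and CYP51A1 a single forward one, with no sterol element letters of this form in the stretch. The mean levels of these 3 genes spanned over 10 times in the same libraries, HMGCS1 at a mean of 18.8, CYP51A1 at 8.76 and IDI1 at 1.35 scaled TPM, and 0 of the 3 passed the test between the groups.

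The regulators stood higher than the enzymes, with a median of 23.3 scaled TPM. SREBF2, whose product drives the sterol enzymes, was at 22.5, 19.6, 25.0 and 23.3 scaled TPM in βPrlR+/- mice and at 21.9, 21.7 and 22.5 in Prlr+/- mice. The Prlr+/- mice were tightly grouped inside the βPrlR+/- range, and the difference was −0.030 (0.082 SE, 95% interval −0.22 to 0.16, exact permutation p = 0.657). SREBF1, whose forms also drive fatty acid synthesis, held 23.4, 18.2, 21.9 and 20.9 in βPrlR+/- mice and 22.0, 23.3 and 22.1 in Prlr+/- mice. Again 1 βPrlR+/- mouse, mouse 2, was low and the others mixed, with a difference of 0.093 (0.087 SE, 95% interval −0.11 to 0.30), which was 0.027 without that mouse and 0.14 without βPrlR+/- mouse 1. The RNA of both factors was near equal in each library, SREBF1 being 0.879 to 1.07 times SREBF2.

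SCAP, the escort of the SREBPs, was at 24.1, 27.1, 24.4 and 26.1 scaled TPM in βPrlR+/- mice and at 24.0, 20.5 and 26.3 in Prlr+/- mice. The lowest was Prlr+/- mouse 2 and the highest βPrlR+/- mouse 2, while the other 5 mice lay between 24.0 and 26.3. The difference of −0.11 (0.090 SE, 95% interval −0.32 to 0.10) had a limma p of 0.262. It was −0.016 without Prlr+/- mouse 2 and −0.19 without Prlr+/- mouse 3. On TPM as deposited it was −0.25 with an unadjusted p of 0.0338 and an adjusted p of 0.59, in a setting where the median of all genes lay at −0.12.

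INSIG1, a sensor of sterols that is itself an SREBP target, stood at 33.6, 27.0, 31.0 and 32.9 scaled TPM in βPrlR+/- mice and at 29.1, 28.1 and 34.2 in Prlr+/- mice. INSIG2, its relative, stood at 23.8, 26.3, 22.1 and 26.3 in βPrlR+/- mice and at 23.2, 22.6 and 25.1 in Prlr+/- mice. For neither gene did the groups separate, with differences of −0.028 (0.10 SE) and −0.054 (0.079 SE). INSIG1 was above INSIG2 in 7 of 7 libraries, by 1.02 to 1.41 times. STARD4, a cytosolic sterol carrier, was the lowest of the group at a mean of 5.30, and its range in Prlr+/- mice, 5.08 to 5.41, lay inside that of the βPrlR+/- mice, 4.25 to 6.30. Of the 6 genes 1 had a higher and 5 a lower mean in Prlr+/- mice, with a median difference of −0.029. On TPM as deposited 0 were higher and 6 lower, and with TPM divided by the sum over all genes but INS and Ins1 2 were higher and 4 lower.

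In the fatty acid branch the enzymes that supply acetyl-CoA gave the smallest p-values of the 37 genes, though neither passed. ACLY, ATP citrate lyase, which splits citrate from the mitochondria into cytosolic acetyl-CoA, was the most abundant of all the genes examined and higher than 99.1% of genes tested. It was at 424, 339.6, 348 and 352 scaled TPM in βPrlR+/- mice and at 450.0, 400.1 and 408 in Prlr+/- mice. Of the βPrlR+/- mice 3 lay below all Prlr+/- mice and mouse 1 lay among them. The ratio of the means was 1.15 and the difference 0.20 (0.10 SE, 95% interval −0.036 to 0.43), with a limma p of 0.0859 and an exact two-sided permutation p of 0.114. Without βPrlR+/- mouse 1 the difference was 0.27, with an unadjusted p of 0.0140 and an adjusted p of 0.525, while leaving out any other mouse gave 0.15 to 0.23, lowest without Prlr+/- mouse 1, and unadjusted p-values from 0.0797 to 0.247.

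ACSS2 makes acetyl-CoA from acetate. Its values were 19.1, 18.4, 15.2 and 16.1 scaled TPM in βPrlR+/- mice and 19.8, 20.6 and 18.3 in Prlr+/- mice, so that βPrlR+/- mice 1 and 2 reached the Prlr+/- range and mice 3 and 4 did not. The difference was 0.18 (0.092 SE, 95% interval −0.036 to 0.39, limma p = 0.0899, exact two-sided permutation p = 0.171), and without βPrlR+/- mouse 1 it was 0.23, with an unadjusted p of 0.04 and an adjusted p of 0.682 by limma. Leaving out βPrlR+/- mouse 3 gave 0.12, with an unadjusted p of 0.202. In each library ACLY was 18.4 to 23.0 times ACSS2.

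ACACA and ACACB encode the acetyl-CoA carboxylases, the first serving synthesis in the cytosol and the other regulating fatty acid entry into mitochondria. ACACA was at 5.26, 4.65, 6.24 and 5.40 scaled TPM in βPrlR+/- mice and at 5.38, 5.15 and 5.56 in Prlr+/- mice, with means of 5.39 and 5.36. Its difference was −0.0006 (0.091 SE, 95% interval −0.21 to 0.21). ACACB was the lowest of the 37 genes, at 0.48 to 1.04 scaled TPM in βPrlR+/- mice and 0.37 to 0.54 in Prlr+/- mice, a ratio of the means of 0.643. The 1 added before the log shrinks differences at such low levels, and on that scale the difference was −0.23 (0.13 SE, exact permutation p = 0.171). Leaving out βPrlR+/- mouse 1 gave −0.30, with an unadjusted p of 0.0453 and an adjusted p of 0.682 by limma, and leaving out βPrlR+/- mouse 3 gave −0.14. ACACA stood above ACACB in every library, by 6.01 to 14.0 times.

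FASN, fatty acid synthase, builds palmitate. It held 10.2, 8.60, 13.1 and 11.6 scaled TPM in βPrlR+/- mice and 10.5, 12.1 and 10.7 in Prlr+/- mice. The βPrlR+/- mice spanned both ends of the range, mouse 2 lowest and mouse 3 highest, and the Prlr+/- mice lay between. The difference was 0.040 (0.13 SE, 95% interval −0.27 to 0.35). Its promoter holds 3 CCAAT matches in the stretch below, of which a forward and an inverted one overlap as CCAATTGG, and it is shown as the promoter of the enzyme at the centre of this branch.
FASN, chr11:120824593-120824652, minus strand, 105 to 46 bases before the start: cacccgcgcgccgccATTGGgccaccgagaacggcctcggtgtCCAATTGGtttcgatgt

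SCD, the row for mouse Scd1, a desaturase that makes oleate and is a strong SREBP1 target in liver, had the lowest fold change of the 37 genes. It was at 1.24, 0.53, 2.09 and 0.86 scaled TPM in βPrlR+/- mice and at 0.52, 0.68 and 0.73 in Prlr+/- mice. The 3 Prlr+/- mice were all low, but so was βPrlR+/- mouse 2, and the highest value by far was that of βPrlR+/- mouse 3, without which the difference was −0.18. The ratio of the means was 0.545 and the difference −0.36 (0.22 SE, 95% interval −0.89 to 0.16), with a limma p of 0.15. The unadjusted p was 0.0283 with the acinar marker level as a covariate, and 0.0339 without βPrlR+/- mouse 2, with adjusted p-values of 0.921 and 1.0. Another desaturase of this family, SCD2, was much the more abundant, at 12.1, 7.83, 15.1 and 11.3 in βPrlR+/- mice and 9.85, 15.7 and 11.0 in Prlr+/- mice, or 7.23 to 14.8 times SCD in βPrlR+/- and 15.1 to 23.0 times in Prlr+/- mice. That ratio was picked with 8 others after the values had been seen, and its groups were not tested.

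The elongases and desaturases that follow were likewise mixed. ELOVL6, which lengthens palmitate, stood at 6.25, 6.63, 8.28 and 7.63 scaled TPM in βPrlR+/- mice and at 8.67, 6.48 and 7.71 in Prlr+/- mice, and both groups covered nearly the same range. The difference was 0.072 (0.12 SE), and it ran from −0.014 to 0.17 with a mouse left out. ELOVL5, an elongase of polyunsaturated fatty acids, was more abundant and more variable, at 57.5 to 88.6 in βPrlR+/- mice and 60.1 to 108 in Prlr+/- mice, where mouse 3 alone was above all others. Leaving that mouse out moved its difference from 0.10 to −0.15.

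FADS1 and FADS2 place double bonds in polyunsaturated fatty acids. FADS1 was among the steadiest genes, at 18.0, 18.7, 17.4 and 17.7 scaled TPM in βPrlR+/- mice and at 18.8, 18.0 and 20.3 in Prlr+/- mice. Its difference of 0.077 (0.060 SE, 95% interval −0.063 to 0.22) had the narrowest interval of the 37. FADS2 was lower and varied more, at 4.14, 2.67, 6.61 and 5.26 in βPrlR+/- mice and at 3.27, 4.24 and 4.24 in Prlr+/- mice. βPrlR+/- mouse 2 was the lowest and βPrlR+/- mice 3 and 4 the highest, with all Prlr+/- mice between, and its interval was wide, from −0.71 to 0.39.

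MLXIPL encodes ChREBP, the carbohydrate-sensing factor that switches on lipogenic genes when glucose is high. It stood at 87.7, 89.7, 103 and 102 scaled TPM in βPrlR+/- mice and at 84.0, 135 and 91.7 in Prlr+/- mice, above 96.3% of genes tested. Prlr+/- mouse 2 was far above the other 6 mice, and the other Prlr+/- mice were near or under the low end of the βPrlR+/- range. The difference was 0.089 (0.16 SE, 95% interval −0.29 to 0.47), and without Prlr+/- mouse 2 it was −0.12. One of its 2 promoter windows holds the letters of the sterol element, and the stretch is shown for that reason.
MLXIPL, chr5:135106731-135106790, plus strand, 160 to 101 bases before the start: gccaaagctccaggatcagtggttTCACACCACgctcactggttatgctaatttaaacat

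DGAT1 and DGAT2 add the last fatty acid to a triglyceride. DGAT1 was at 6.31, 6.53, 6.15 and 6.81 scaled TPM in βPrlR+/- mice and at 6.12, 7.73 and 6.41 in Prlr+/- mice. DGAT2 was at 4.09, 5.93, 5.38 and 6.80 in βPrlR+/- mice and at 5.69, 2.50 and 6.86 in Prlr+/- mice. DGAT2 was lowest in Prlr+/- mouse 2 and its interval was the widest of all, from −0.84 to 0.47. In that library DGAT1 was 3.09 times DGAT2, against 0.934 to 1.54 times in the other 6. Over the 13 genes 8 had a higher and 5 a lower mean in Prlr+/- mice, with a median difference of 0.053 that was 0.015 without βPrlR+/- mouse 1 and 0.025 without Prlr+/- mouse 2, whereas on TPM as deposited 2 were higher and 11 lower.

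The genes also differed in how much the mice varied. For 25 of the 37 genes the highest mouse was under 1.5 times the lowest, and SC5D, which introduces a double bond late in sterol synthesis, was the steadiest at 1.15 times. The highest mouse was over 2 times the lowest for 5 genes, SCD (4.02 times), ACACB (2.83), DGAT2 (2.75), FADS2 (2.48) and IDI1 (2.20). These include 3 of the 4 genes with a mean under 2 scaled TPM, and also DGAT2 and FADS2, with means of 5.32 and 4.35.

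**Figure D3:**
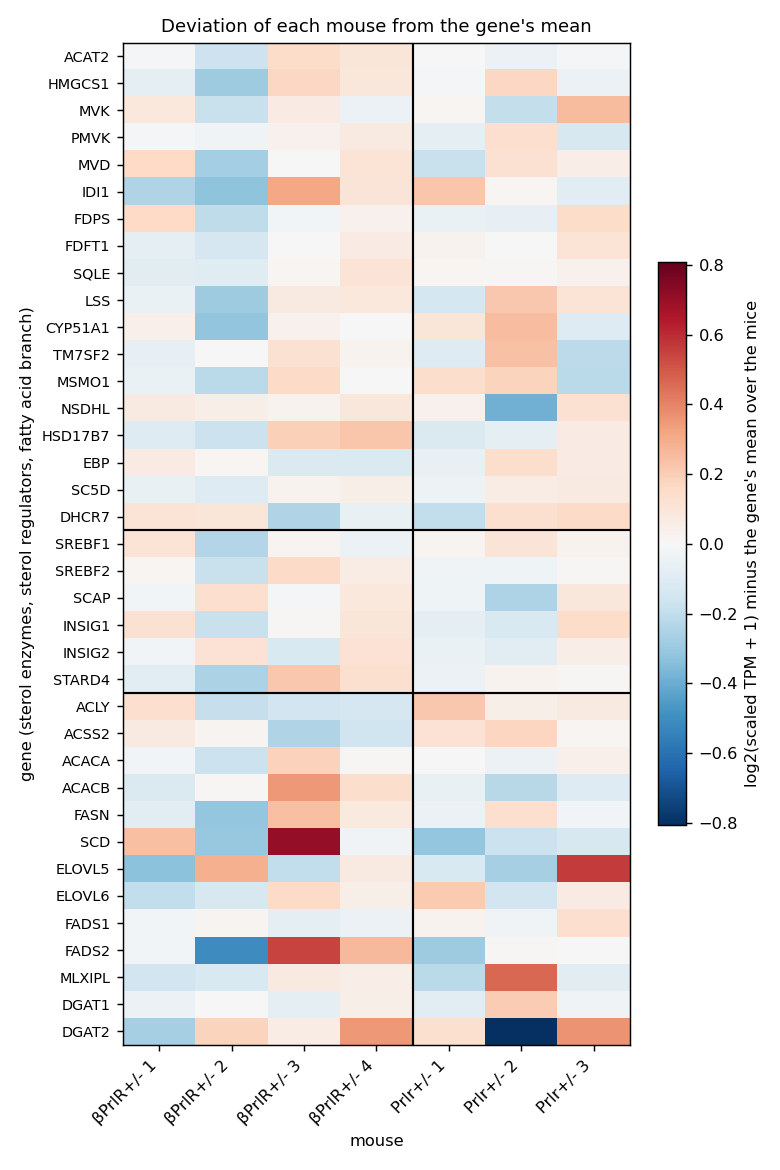
Difference of log2(scaled TPM + 1) in each mouse from the gene's mean over the 7 mice (color), for the 37 genes in pathway order, with a vertical line between the groups. βPrlR+/- mouse 2 is below the mean for most sterol enzymes, and the strongest single deviations are those of DGAT2, ELOVL5 and MLXIPL in Prlr+/- mice 2 or 3 and of SCD and FADS2 in βPrlR+/- mice 2 or 3.

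Many of the sterol enzymes had the same lowest mouse. In scaled TPM 12 of 18 were lowest in βPrlR+/- mouse 2, against 13.3% of all genes tested, and so were 4 of the 6 regulators and 4 of the 13 genes of the fatty acid branch. The median deviation of the 18 enzymes in that mouse was −0.17 on the log2 scale, and in the other 6 mice it lay between −0.034 and 0.093. This order depended on the scaling. With upper-quartile scaling the count was 10 of 18, with TPM divided by the sum over all genes but INS and Ins1 it was 5 of 18, and on TPM as deposited 1 of 18, against 11.0%, 5.46% and 3.67% of all genes tested. The same mouse was lowest for 16 of 16 acinar markers under all 4 scalings, and the part of exocrine RNA in the order was not tested. In scaled TPM the highest mouse was spread more evenly, with Prlr+/- mouse 2 highest for 7 and Prlr+/- mouse 3 for 5 of the 18, against 23.2% and 15.3% of all genes tested. This too depended on the scaling. On TPM as deposited βPrlR+/- mouse 3 was highest for 9 of 18, against 36.8% of all genes tested. With TPM divided by the sum over all genes but INS and Ins1, βPrlR+/- mouse 4 was highest for 8, against 17.0%.

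**Figure D4:**
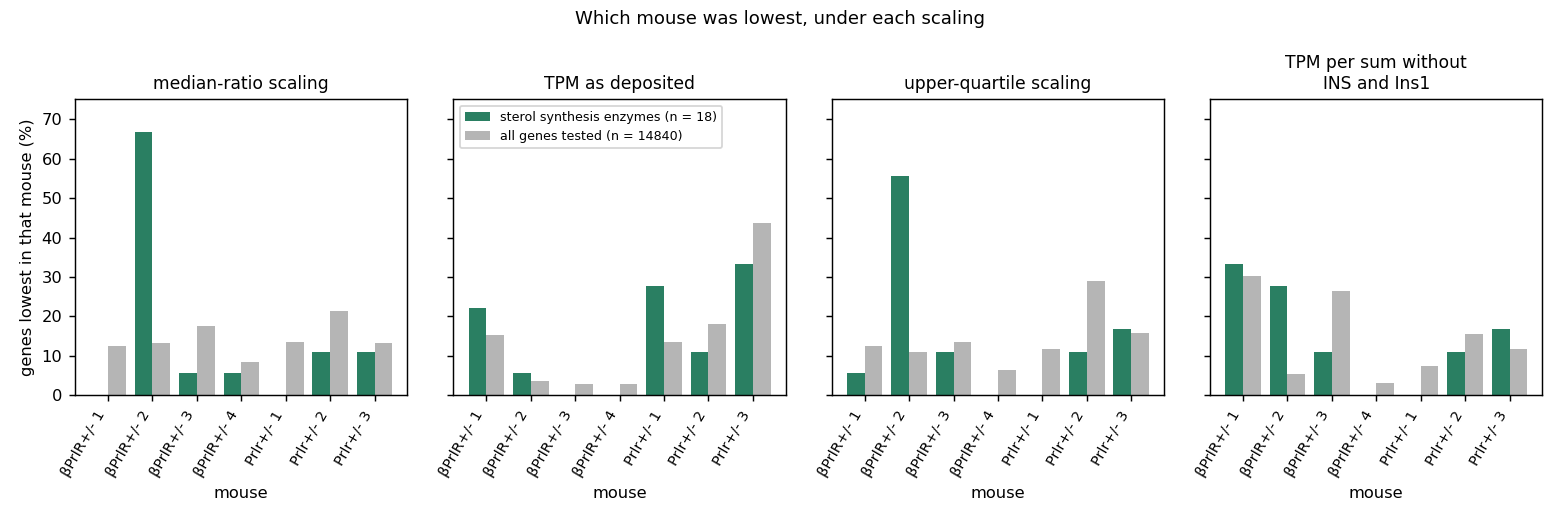
Share of genes (%) for which each mouse was the lowest of the 7, for the 18 sterol enzymes (green bars) and all 14840 genes tested (gray bars), under 4 scalings. βPrlR+/- mouse 2 was lowest for 12 enzymes under median-ratio scaling (13.3% of all genes tested) but for 1 on TPM as deposited (3.67%).

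Most of the genes were read from 1 main transcript. A single transcript was above 0 for 13 genes and several for 24, and the leading one held over 50% of the gene's value in every mouse for 29 genes. SREBF1 had 7 transcripts, the leading one holding 45.7% to 55.6%, and MLXIPL had 15 above 0, the leading one holding 33.0% to 42.2%. These shares moved little among the mice. In contrast the leading transcript of HSD17B7 held from 35.9% to 100% that of DHCR7 from 39.1% to 84.9%, that of DGAT1 from 37.8% to 79.9%, that of MVK from 21.3% to 60.8% and that of ACACB from 39.1% to 77.3%, so the totals of these genes, among others, mix transcripts in proportions that differ between libraries. The row ACAT2 sums the mouse genes Acat2 and Acat3, and its leading transcript held at least 97.2%.

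Genes that work beside these were taken by lists, and 0 of them passed the adjusted threshold. Of 10 tested genes of SREBP cleavage and turnover 8 had a higher and 2 a lower mean in Prlr+/- mice, with a median difference of 0.043. Of 10 genes of the isoprenoid side branches, which make dolichol, ubiquinone and prenyl groups, 8 were higher and 2 lower, with a median of 0.051. For both lists all 10 were lower on TPM as deposited. Of 13 genes of sterol transport and esterification 5 were higher and 8 lower (median −0.022), and on TPM as deposited 0 and 13. Of 27 genes of fatty acid activation, elongation and glycerolipids 14 were higher and 13 lower (median 0.0038), and on TPM as deposited 2 and 25.

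Within the last list AGPAT2, an acyltransferase that makes phosphatidic acid, had an unadjusted p of 0.0392. It was at 11.6, 10.8, 10.3 and 10.5 scaled TPM in βPrlR+/- mice and at 12.7, 11.3 and 13.0 in Prlr+/- mice, the groups overlapping through mice 1 and 2. The groups of 2 further genes did not overlap, NUS1, a subunit of the enzyme that makes dolichol precursors, at 21.8 to 23.98 in βPrlR+/- and 24.04 to 25.1 in Prlr+/- mice, and AGPAT3, another acyltransferase, at 31.0 to 31.94 and 31.97 to 36.1. Both were named after their values had been seen. With LIPE, described next, 3 of the 79 neighbouring genes tested did not overlap, near the share among all genes tested (4.95%). An unadjusted p under 0.05 by limma was also found for 3 of the 79, AGPAT2, LIPE and CPT1C. That is near the share among all genes tested too (4.52%).

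Fatty acid oxidation and lipolysis, the processes that oppose synthesis, formed the last list. Of 19 tested genes 4 had a higher and 15 a lower mean in Prlr+/- mice, with a median of −0.051, while 48.3% of all genes tested were lower. On TPM as deposited 19 of the 19 were lower beside 88.1% of all genes, with upper-quartile scaling 17 beside 60.1%, and with TPM divided by the sum over all genes but INS and Ins1 13 beside 42.7%. LIPE, hormone-sensitive lipase, was at 4.43, 4.74, 4.56 and 4.60 scaled TPM in βPrlR+/- mice and at 3.77, 3.15 and 3.92 in Prlr+/- mice. All 3 Prlr+/- mice lay below all 4 βPrlR+/- mice, with a difference of −0.28 (0.077 SE, 95% interval −0.46 to −0.10). Its unadjusted limma p was 0.00766 and its adjusted p 0.758, and 4.95% of all genes tested were without overlap in the same way. CPT1C, a carnitine palmitoyltransferase best known from neurons, was at 5.74, 7.33, 7.35 and 8.53 in βPrlR+/- mice and 5.93, 5.91 and 5.53 in Prlr+/- mice, with an unadjusted p of 0.0498 and the low βPrlR+/- mouse 1 inside the Prlr+/- range. Of the 19 genes 10 were lowest in Prlr+/- mouse 2, which was the lowest for 21.3% of all genes tested.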

How the data were processed

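Strand-specific libraries of poly(A) RNA were made, and the authors quantified mouse RefSeq transcripts with kallisto 0.42.4, per the labels and the study's methods. The deposited values are called FPKM in the methods, but the values of every mouse add up to 1000000, so the deposited gene and transcript values were handled as TPM. Since TPM holds no read depth, counting intervals are left out. The genome build is not given in the sources used here. TPM were divided by a median-ratio size factor, genes averaging 0.5 TPM or more were kept, and log2(scaled TPM + 1) was fitted over all 7 mice with limma 3.58.1 (trend) in R 4.3.3, with Benjamini-Hochberg adjustment at 0.05 and 95% intervals. Each library is a separate mouse, and no pair of mice shared more than 1 nonzero value. The fit was tested on simulated data. Other steps used Python 3.11.15, pandas 2.3.3, numpy 2.4.6, scipy 1.17.1 and matplotlib 3.10.9. The members and lists were chosen with earlier results of these data known. Values in every mouse were given for 21 listed enzymes and regulators and for any member at an unadjusted p under 0.05 or without overlap, of which there were 0. Neighbouring genes were named at an unadjusted p under 0.05, apart from NUS1 and AGPAT3, named for groups without overlap, and SCD2, named for its ratio to SCD. GP78, CTRB1 and LYZ2 matched no row. Promoters came from RefSeq on GRCm38.p6 and were used for sequence only. The alternatives were TPM as deposited, upper-quartile scaling, TPM divided by the sum over all genes but INS and Ins1, a pseudocount of 0.1, all genes above 0, a robust fit, the mean acinar marker level as a covariate, and each mouse left out. The order of mice under other scalings was added after seeing the data.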

Additional observations from a re-analysis of the deposited data

Results flagged for a closer look

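In the group of 4 βPrlR+/- mice, 2 of 37 genes had a mouse far from the others by Dixon's ratio at its 95% critical value, and chance alone flags about 1 in 20 groups. CYP51A1, the lanosterol demethylase, was low in βPrlR+/- mouse 2, at 6.78 scaled TPM against 8.68 to 8.97 in the other 3, with a ratio of 0.866. ACLY, ATP citrate lyase, was high in βPrlR+/- mouse 1, at 424 scaled TPM against 339.6 to 352 in the other 3, with a ratio of 0.849. Groups of 3 mice were not examined in this way.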

How the results depend on the processing

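No gene of either branch passed the adjusted threshold in any of 518 alternative fits (259 with another scaling or model, 259 with a mouse left out), where the lowest adjusted p was 0.59 and 0.525. Among all genes tested the count past the threshold was 10, and it became 18 with a pseudocount of 0.1, 4 with all genes above 0, 6 with the acinar covariate, 5 with TPM divided by the sum over all genes but INS and Ins1, and 2 to 13 on leaving out each mouse, the lowest being that without mouse 4 of the βPrlR+/- group. The median over the sterol branch was −0.11 on TPM as deposited, where that of all genes tested was −0.12, and its distance from the median of all genes was 0.013 to 0.025 over the 4 scalings, but with a mouse left out the median itself ran from −0.025, without βPrlR+/- mouse 2 and under that of all genes (0.0028), to 0.038, and it was 0.0009 without Prlr+/- mouse 3, also under that of all genes (0.0032). That of the fatty acid branch ran from 0.015 to 0.076 with a mouse left out. Sterol enzymes lowest in βPrlR+/- mouse 2 numbered 1 on TPM as deposited and 5 with TPM divided by the sum without INS and Ins1. The shares of all genes tested were then 3.67% and 5.46%. Direction was lost in 24 fits over 20 genes with another scaling or model. On TPM as deposited the differences of 18 genes turned negative: HMGCS1 (−0.079), MVK (−0.074), MVD (−0.10), FDPS (−0.12), FDFT1 (−0.051), SQLE (−0.11), LSS (−0.019), MSMO1 (−0.077), EBP (−0.048), SC5D (−0.080), DHCR7 (−0.082), SREBF1 (−0.047), FASN (−0.094), ELOVL5 (−0.043), ELOVL6 (−0.058), FADS1 (−0.062), MLXIPL (−0.056) and DGAT1 (−0.074). With upper-quartile scaling MVD (−0.023) and FDPS (−0.015) turned, with the acinar covariate MVD (−0.010), without INS and Ins1 in the sum STARD4 (0.010) and ACACA (0.014), and with a pseudocount of 0.1 ACACA (0.0003). With a mouse left out 36 fits over 21 genes changed sign, and the differences ran from lowest to highest as ACAT2 −0.098 to 0.0045, HMGCS1 −0.026 to 0.12, MVK −0.072 to 0.16, PMVK −0.12 to 0.011, MVD −0.090 to 0.092, IDI1 −0.0069 to 0.20, FDPS −0.055 to 0.071, TM7SF2 −0.18 to 0.042, MSMO1 −0.0068 to 0.19, NSDHL −0.24 to 0.019, DHCR7 −0.023 to 0.17, SREBF2 −0.094 to 0.015, INSIG1 −0.11 to 0.027, STARD4 −0.090 to 0.066, ACACA −0.058 to 0.060, FASN −0.058 to 0.12, ELOVL5 −0.15 to 0.27, ELOVL6 −0.014 to 0.17, MLXIPL −0.12 to 0.22, DGAT1 −0.035 to 0.11 and DGAT2 −0.42 to 0.17. The other genes kept their sign, with FDFT1 0.052 to 0.12, SQLE 0.010 to 0.078, LSS 0.029 to 0.21, CYP51A1 0.056 to 0.23, HSD17B7 −0.14 to −0.013, EBP 0.041 to 0.14, SC5D 0.024 to 0.090, SREBF1 0.027 to 0.14, SCAP −0.19 to −0.016, INSIG2 −0.11 to −0.022, ACLY 0.15 to 0.27, ACSS2 0.12 to 0.23, ACACB −0.30 to −0.14, SCD −0.51 to −0.18, FADS1 0.032 to 0.12 and FADS2 −0.35 to −0.0042. The cause of each was not tested beyond the shift of all genes given above. No paired analysis was possible because the labels give each mouse its own number and no number is shared between groups.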
